A study of Xenopus laevis with 27 samples.

Results

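Geminin is represented on the Affymetrix Xenopus laevis Genome 2.0 array by 2 of 32635 probe sets, 1 for each copy of the gene in this allotetraploid frog. The members were all probe sets whose platform gene symbol is gmnn.L (probe set Xl2.462.1.S1_at, Entrez gene 398096) or gmnn.S (probe set Xl2.461.1.S1_at, Entrez gene 399373), and the letters L and S name the long and short chromosome sets. They were read on all 27 arrays, and no filter on low values was applied, so both members entered every comparison. The gene was selected on its own levels over the 9 groups. Its levels and differences are therefore given as a description, with the spread over arrays and no test.

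Each array held RNA from a pool of 10 whole embryos that had received 1.5 ng of RNA into 1 blastomere at the 2-cell stage, so each embryo carried descendants of an injected and an uninjected cell. The control groups received RNA for GFP, a fluorescent tracer. The NICD groups, named ICD in the labels, received RNA for the Notch intracellular domain, which turns Notch target genes on. The DBM groups received RNA for a form of Suppressor of Hairless that cannot bind DNA, which blocks Notch-dependent transcription. The series description adds GFP RNA to both constructs, whereas the treatment notes list each RNA alone. Embryos were collected at stage 18 (late neurula), stage 28 (tailbud) or stage 38 (swimming tadpole), giving 9 groups of 3 arrays. A pool of whole embryos averages all tissues, and fewer cells of a type and less RNA per cell cannot be told apart in it.

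Geminin is a small coiled-coil protein that binds Cdt1 and so stops the MCM helicase from being loaded again onto origins that have already fired. It accumulates through S phase and G2 and is destroyed at mitosis and in G1 by the anaphase-promoting complex. In Xenopus it was isolated in parallel as such a degraded replication inhibitor and as a protein that expands the neural plate when overexpressed, and it is also known to bind the chromatin remodeler Brg1, Polycomb proteins and the homeodomain protein Six3. The Notch pathway works through release of the intracellular domain, which joins Suppressor of Hairless on DNA and raises repressors of the Hes and Hey families. Messenger RNA was measured, so nothing here bears on the regulated breakdown of the geminin protein.

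Array medians were between 6.83 and 6.99 on the log2 scale. The quantile normalization of these values sets them near each other, so they cannot show whether brightness differed between arrays. The manufacturer's hybridisation controls moved with stage, with ranges of 11.07 to 11.38, 10.21 to 10.48 and 10.62 to 11.45 in the order of development. The 3′ minus 5′ difference of the elongation factor control, a sign of RNA quality, moved with stage as well, at -1.09 to -0.38, -0.53 to -0.13 and 0.39 to 1.32. At stage 28 it was -0.53 to -0.40 on NICD arrays, -0.36 to -0.13 on GFP arrays and -0.37 to -0.25 on DBM arrays. At stage 38 it was 0.39 to 0.58 on NICD arrays, 0.97 to 1.07 on GFP arrays and 1.17 to 1.32 on DBM arrays. At stage 18 the constructs overlapped in it. The same difference for the actin and gapdh controls overlapped between stages, with 10.80 to 11.38 and 0.49 to 1.22 over all arrays. The part of these measures in the geminin differences was not tested. The constructs were checked on known Notch targets. With NICD at stage 18, hes5.1.S was 3.14 ± 0.20 log2 units above GFP (SE, limma adjusted p = 7.6e-09) and hey1.S was 2.32 ± 0.12 above it on probe set Xl2.469.1.S1_at (adjusted p = 1.3e-10). Of 23 probe sets of 12 Notch target symbols, 14 rose with NICD at stage 18, 6 at stage 28 and 1 at stage 38, against 1.61%, 0.65% and 0.095% of all probe sets called in either direction. With the replicate number as a block within each stage these counts were 17, 18 and 1, against 13.2%, 6.19% and 1.21% of all probe sets. With DBM none of the 23 passed at any stage, where 0%, 0.107% and 0.0123% of all probe sets did. At stage 18 the DBM differences from GFP were 0.42 ± 0.20 for hes5.1.S, 0.25 ± 0.21 for hes5.1.L and 0.15 and 0.04 for hey1.S. Those of nrarp.S were -0.22 and -0.10. With the block within each stage 0 of the 23 were called at stage 18, beside 0.236% of all probe sets. A lower level of Notch targets with DBM was thus not seen by these tests at stage 18. At stage 28, 6 of the 23 had an unadjusted p below 0.05 with DBM, and the median difference of the 23 was -0.18. No share of all probe sets was counted at that unadjusted cut, here or below, so such counts are no result about a list. With the replicate number as a block within each stage, 4 of the 23 fell with DBM at stage 28, beside 1.94% of all probe sets called.

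At stage 18, NICD embryos had the highest level of both geminin copies. On the 3 GFP arrays gmnn.L read 11.07, 10.63 and 10.64 (log2, replicates 1 to 3). On the 3 NICD arrays it read 11.87, 11.88 and 11.91. All 3 NICD arrays lay above all 3 GFP arrays, and the NICD arrays were the closest to each other of any group, with an SD of 0.02 against 0.25 for GFP. The difference was 1.11 ± 0.13 (SE of the fit), a 2.16-fold higher level. Arrays that did not overlap in this direction were found for 7.92% of all probe sets in this comparison. Of 32475 probe sets that are no controls of the manufacturer, 51 had a larger positive difference.

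The S copy was higher with NICD as well. It read 10.16, 9.65 and 9.81 with GFP and 10.68, 10.83 and 10.79 with NICD at stage 18. The groups did not overlap, and GFP replicate 1 was the control nearest to the NICD arrays, as it was for gmnn.L. The difference for gmnn.S was 0.89 ± 0.15, a 1.86-fold higher level, and 92 probe sets had a larger value. Between arrays with the same replicate number, the difference was smallest for number 1 in both copies: 0.80, 1.25 and 1.27 for gmnn.L and 0.51, 1.19 and 0.98 for gmnn.S.

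DBM arrays of stage 18 overlapped the controls in both copies. The DBM arrays read 11.05, 10.88 and 10.95 for gmnn.L, inside the range of the GFP arrays. For gmnn.S they read 10.27, 10.05 and 10.12, and 2 of the 3 lay inside the range of GFP while replicate 1 was just above it. The differences from GFP were 0.18 ± 0.13 for gmnn.L and 0.27 ± 0.15 for gmnn.S. With single arrays left out they ranged from 0.11 to 0.33 and from 0.16 to 0.42, and both were highest without GFP replicate 1. Between arrays of the same number DBM was higher in 2 of 3 pairs for gmnn.L and in 3 of 3 for gmnn.S (0.10, 0.40 and 0.31). How many of all probe sets have 3 of 3 pairs in 1 direction was not counted, here or at the later stages. Both constructs were set against the same 3 GFP arrays, so these differences share their controls. Taken against DBM in place of GFP, NICD was higher by 0.93 ± 0.13 for gmnn.L and by 0.62 ± 0.15 for gmnn.S, with no overlap in either copy. For NICD over DBM, 7.14% of all probe sets were free of overlap in that direction.

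**Figure D1:**
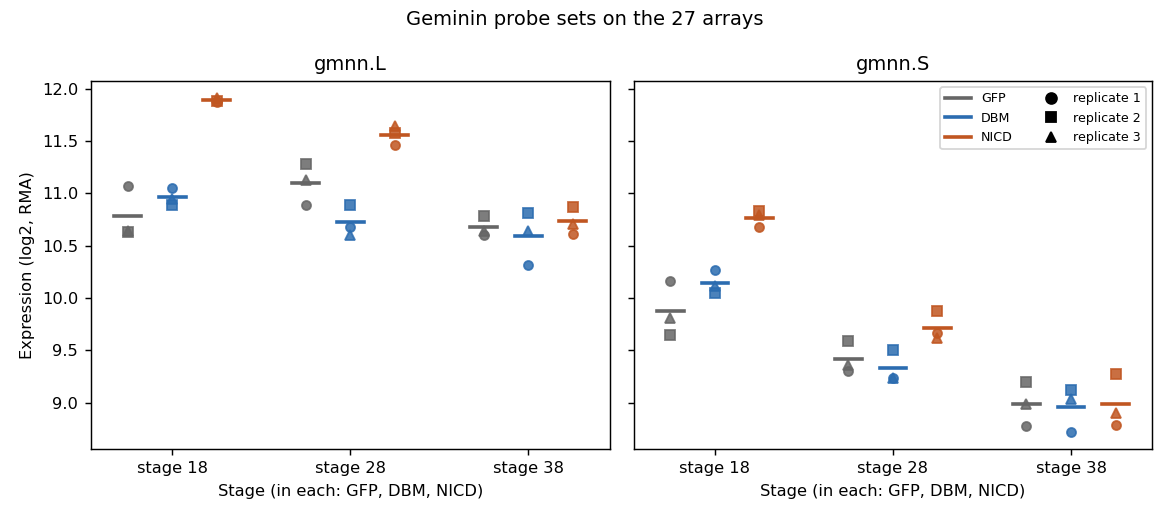
Expression of gmnn.L and gmnn.S (log2, RMA) on each of the 27 arrays by stage and construct, where symbols mark replicate numbers and bars the group means. NICD arrays lie above all others of their stage at stage 18 and stage 28 and among the others at stage 38.

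At stage 28 the difference for NICD was smaller and DBM lay below GFP in the L copy. For gmnn.L the GFP arrays read 10.89, 11.28 and 11.13, the NICD arrays 11.46, 11.58 and 11.64, and the DBM arrays 10.68, 10.89 and 10.61. NICD lay above every GFP array. DBM lay below every GFP array, but its highest array and the lowest GFP array were 10.886 and 10.891, which leaves next to no gap. NICD minus GFP was 0.46 ± 0.13 (1.38-fold) and DBM minus GFP was -0.38 ± 0.13, that is 1.30-fold lower. In these comparisons, 8.39% of all probe sets were free of overlap on the NICD side and 6.53% on the lower side for DBM. NICD and DBM stood 0.84 ± 0.13 apart for gmnn.L, a 1.79-fold difference, and 64 probe sets differed further in that direction. Between these groups 10.6% of all probe sets were free of overlap on the NICD side.

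In the S copy NICD stood clear of GFP at stage 28 and DBM did not. Its arrays read 9.30, 9.59 and 9.36 with GFP, 9.66, 9.88 and 9.62 with NICD and 9.24, 9.51 and 9.24 with DBM. The NICD arrays all lay above the GFP arrays, by 0.30 ± 0.15 on average, and the DBM arrays overlapped them at -0.09 ± 0.15. Between arrays of the same number the DBM difference was negative in 3 of 3 pairs for both copies, at -0.21, -0.40 and -0.52 for gmnn.L and -0.06, -0.08 and -0.12 for gmnn.S. NICD was above GFP in 3 of 3 such pairs for both copies, by 0.57, 0.29 and 0.52 for gmnn.L and by 0.36, 0.29 and 0.26 for gmnn.S.

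At stage 38 the arrays of the 3 constructs overlapped in both copies. The gmnn.L arrays read 10.60, 10.78 and 10.64 with GFP, 10.62, 10.87 and 10.71 with NICD and 10.31, 10.82 and 10.64 with DBM. The gmnn.S arrays read 8.77, 9.20 and 8.99 with GFP, 8.78, 9.27 and 8.90 with NICD and 8.72, 9.12 and 9.04 with DBM. Replicate 2 was the highest array of each group in both copies. NICD minus GFP was 0.06 ± 0.13 for gmnn.L and -0.0002 ± 0.15 for gmnn.S, and DBM minus GFP was -0.08 ± 0.13 and -0.03 ± 0.15. Between arrays of the same number NICD was higher for gmnn.L in 3 of 3 pairs, by 0.02, 0.09 and 0.06.

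**Figure D2:**
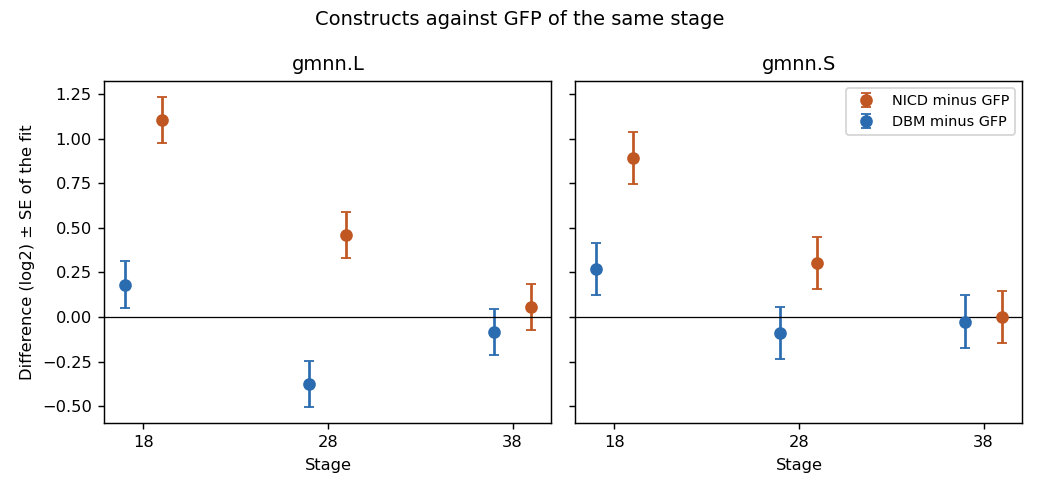
Difference of NICD and DBM from GFP of the same stage (log2) for gmnn.L and gmnn.S, with bars of 1 SE of the fit over 27 arrays. NICD is highest at stage 18 (1.11 and 0.89) and near 0 at stage 38, and DBM has its lowest value for gmnn.L at stage 28 (-0.38).

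Ranked over the 9 groups, gmnn.L was highest with NICD at stage 18 (mean 11.89), then with NICD at stage 28 (11.56), and each of these 2 groups was clear of the next. The other 7 groups had means from 11.10 for GFP at stage 28 down to 10.59 for DBM at stage 38, and every neighbour in that order overlapped. From lowest to highest group the span was 2.46-fold. The order for gmnn.S was set more by stage. NICD at stage 18 was again the highest (10.77), and DBM and GFP of stage 18 came next at 10.14 and 9.87. The groups of stage 28 followed with NICD in front at 9.72, and the 3 groups of stage 38 were the lowest, between 8.96 and 8.99. The neighbours in this order that did not overlap were NICD and DBM at stage 18, NICD and GFP at stage 28, and DBM of stage 28 and GFP of stage 38. The span for gmnn.S was 3.50-fold.

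The copies differed in their course through development. In GFP embryos gmnn.L went from 10.78 at stage 18 to 11.10 at stage 28 and 10.67 at stage 38, with overlap between stages 18 and 28 and none between stages 28 and 38. Its differences were 0.32 ± 0.13 and -0.43 ± 0.13. In the same embryos gmnn.S went from 9.87 to 9.42 and 8.99, with no overlap at either step and differences of -0.46 ± 0.15 and -0.43 ± 0.15. Between stages 28 and 18, 33.1% of all probe sets were free of overlap on the lower side, and 27.5% between stages 38 and 28. Over the whole interval gmnn.S was 1.85-fold lower at stage 38 and gmnn.L 1.08-fold lower. For gmnn.L these groups overlapped, and without GFP replicate 1 of stage 18 the difference turned from -0.10 to 0.04. In NICD embryos both copies were lower at each later stage, and stage 38 minus stage 18 was -1.16 for gmnn.L and -1.78 for gmnn.S. In DBM embryos these differences were -0.37 and -1.19, and stage 28 minus stage 18 was -0.24 for gmnn.L, with overlap, and -0.82 for gmnn.S. The hybridisation and elongation factor controls moved with stage as given above.

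The same shift shows in the difference between the probe sets on each array. A level is not comparable between probe sets, so the zero of this difference has no meaning. A constant offset between the probe sets drops out of its change. Whether the response of either probe set varies with its level was not tested. gmnn.L minus gmnn.S lay at 0.79 to 1.19 on the 9 arrays of stage 18 (median 0.91), at 1.37 to 2.03 at stage 28 (median 1.69) and at 1.58 to 1.83 at stage 38 (median 1.66). Stage 18 did not overlap the later stages. Within stage 28 the value was 1.40 ± 0.04 with DBM (SD, n = 3), 1.68 ± 0.09 with GFP and 1.84 ± 0.17 with NICD, and the 3 DBM arrays lay below the other 6, as was so for 1.39% of 2009 genes with a named probe set for both copies. At stage 18 the NICD arrays, at 1.12 ± 0.07, lay above the other 6, as was so for 2.64% of those genes. Whether the probes of either copy also bind the transcript of the other was not tested.

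**Figure D3:**
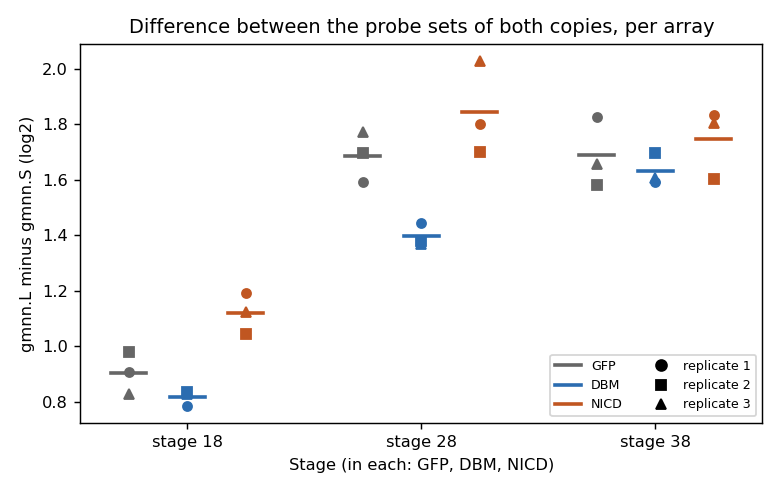
gmnn.L minus gmnn.S (log2) on each array by stage and construct, with symbols for replicate numbers and bars for group means. All arrays of stage 18 lie below 1.2 and all others above 1.3, and the 3 DBM arrays of stage 28 are the lowest of their stage.

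The gap between the changes of the copies was set against that of other genes. Among 2009 genes with a named probe set for both copies, 23.1% had a larger gap, in either direction, between the L and the S change from stage 18 to stage 28 in GFP embryos than the 0.78 of gmnn, and the median gap was 0.38. For NICD against GFP at stage 18 the gap was 0.21 for gmnn, with 29.2% of genes beyond it. For DBM against GFP at stage 28 it was -0.29, with 6.67% beyond it, and for NICD against DBM it was 0.30 at stage 18 and 0.45 at stage 28, with 11.3% and 2.94% beyond it. With NICD at stage 18, 3 of the 2009 genes had L and S differences that both reached the 0.89 of gmnn.S, and they were gmnn and the Notch targets hes5.1 and hes5.2. With NICD at stage 28, 24 of the 2009 genes, gmnn included, reached its smaller difference of 0.30 in both copies. These counts describe where gmnn lies and were not tested, since the gene was chosen for its pattern.

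Array by array the copies moved together. Pearson's r between gmnn.L and gmnn.S was 0.78 over the 27 arrays and 0.85 for deviations from the group means. Within stages it was 0.98, 0.88 and 0.85 over 9 arrays each. The arrays share stage, construct, pool and array-wide effects, so the correlations are descriptions. The probe sets with a gene symbol most like gmnn.L over the 27 arrays were hes5.1.L (r = 0.92), hes5.1.S (0.91), hes5.3.L (0.88), hes5.5.S (0.86) and nkx2-2.S (0.82). Of these, 4 encode repressors of the Hes5 type, and nkx2-2 encodes a homeodomain factor of the ventral neural tube. For gmnn.S they were XB5776174.S (0.96), ptgs2.S (0.96), sart3.L (0.95), tp63.L (0.95) and fgf3.L (0.95), where tp63 encodes an epidermal transcription factor and fgf3 a secreted growth factor. All 5 of these had lower levels in GFP embryos at stage 38 than at stage 18, by 0.97 to 2.32. After removal of the group means the leading symbols were others: cib1.L for gmnn.L (0.84) and cdk2ap1.S for gmnn.S (0.92).

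The partner of geminin, Cdt1, was read by 3 probe sets for cdt1.L. With NICD at stage 18 they differed from GFP by 0.00 ± 0.24, 0.13 ± 0.15 and 0.23 ± 0.13, and none passed (adjusted p = 1, 0.79 and 0.49). The third had an adjusted p of 0.045 with the block within stages. At stage 28 they differed by 0.19 ± 0.24, 0.10 ± 0.15 and 0.23 ± 0.13, again short of the threshold (adjusted p = 0.99, 1 and 0.72). With DBM the 3 probe sets differed from GFP by -0.11 to 0.10 over the 3 stages. In GFP embryos cdt1.L fell in both intervals on 2 of its probe sets, by 0.72 and 0.95 from stage 18 to stage 28 and by 0.87 and 0.57 from stage 28 to stage 38, and on the other in the later interval alone, by 1.19.

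The other licensing genes encode the origin recognition complex, Cdc6 and the MCM helicase. None of the 23 licensing probe sets passed for NICD against GFP at stage 18, where 1.61% of all probe sets did, and the median difference was 0.15 against 0.01 over all probe sets. At an unadjusted p below 0.05 there were 4, with no share of all probe sets counted at that cut. With the replicate block within stages 4 rose and none fell: orc2.S by 0.29, orc3.S by 0.23, orc4.L by 0.21 and the cdt1.L probe set named above. In that fit 13.2% of all probe sets were called, 2009 higher and 2310 lower. The licensing genes of this fit were named after their values were seen. At stage 28 none of the 23 passed with NICD in either fit, beside 0.65% and 6.19% of all probe sets. With DBM orc6.L alone fell with the block (-0.43 ± 0.08, adjusted p = 0.0096), beside 1.94% of all probe sets called.

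No other gene of the cell cycle lists rose as far as geminin with NICD at stage 18. Licensing, origin firing, S phase and mitosis lists together held 150 probe sets of 84 symbols, and their differences with NICD at stage 18 ran from -0.89 to 0.56 with a median of 0.09. The largest fall, -0.89 for ccna1.S, was about the size of the gmnn.S difference of 0.89. Geminin was selected on its own levels over the groups, so its place above these lists is a description. None of the 150 passed the test in any comparison of a construct with GFP, where at most 1.61% of all probe sets did. For NICD against GFP at stage 18, 11 had an unadjusted p below 0.05, with no share of all probe sets counted at that cut. Without GFP replicate 1 of stage 18, 5 of the 150 passed in that comparison, as did 1529 of all probe sets against 525 with it. In the fit with the block within stages, 15 rose and 3 fell with NICD at stage 18, which is 12% of the 150 beside 13.2% of all probe sets. These shares pool both directions. Of all 32635 probe sets, 2009 rose and 2310 fell in that fit, so the 150 were called higher more often than lower and all probe sets were not. Whether the split by direction differs was not tested. The largest rises among the 150 were uhrf1.S, a maintenance factor of DNA methylation (0.56 ± 0.14, adjusted p = 0.011 with the block), and the spindle checkpoint gene bub3.L (0.51 ± 0.13, adjusted p = 0.018). Those that fell were the embryonic A-type cyclin ccna1.S (-0.89 ± 0.11) and its L copy (-0.48 ± 0.09), and ccnb2.L (-0.20 ± 0.06). With NICD at later stages the block gave rises of mad2l1.S (0.57) and ccne1.S (0.32) at stage 28 and of ccna1.S (0.50) at stage 38, where 6.19% and 1.21% of all probe sets were called.

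**Figure D4:**
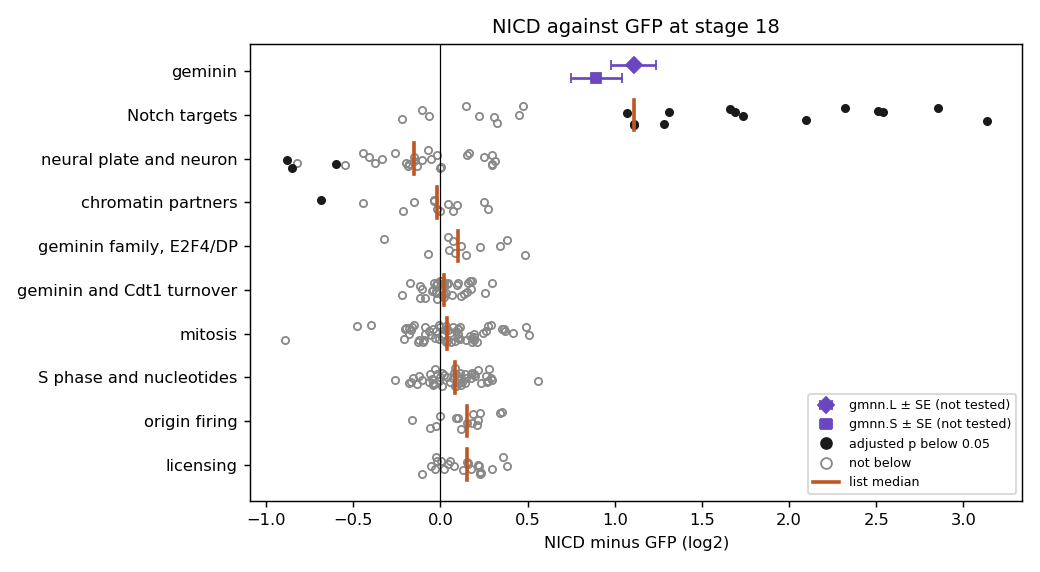
NICD minus GFP at stage 18 (log2) for each probe set of 9 gene lists, with list medians, and for the geminin probe sets with 1 SE. Filled points passed an adjusted p of 0.05, and geminin, at 1.11 and 0.89, lies above every probe set of the 4 cell cycle lists.

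Genes for the turnover of geminin and Cdt1 protein (subunits and activators of the anaphase-promoting complex, the Emi1 gene fbxo5, and the Cul4 and Skp2 ligases with pcna) gave 37 probe sets. None passed with NICD at stage 18, beside 1.61% of all probe sets, and the differences ran from -0.22 to 0.30. At an unadjusted p below 0.05 there were 3, with no share of all probe sets at that cut. With the block 1 passed, skp2.L at 0.26 ± 0.08 (adjusted p = 0.033), beside 13.2% of all probe sets called in either direction. Of the geminin family, mcidas encodes multicilin, a coiled-coil partner of geminin that switches on multiciliated cells. mcidas.S differed by -0.32 ± 0.21 with NICD at stage 18 (adjusted p = 0.56) and by 0.22 ± 0.21 with DBM (adjusted p = 1), and it fell by 1.68 in GFP embryos from stage 18 to stage 28 (adjusted p = 6.1e-07). Its relative gmnc was not analysed here. None of the 12 probe sets of that list passed for NICD or DBM against GFP, where at most 1.61% of all probe sets did. For NICD at stage 18, 2 had an unadjusted p below 0.05, with no share of all probe sets at that cut. With the block 3 of tfdp2.S, a DP partner of E2F factors, rose with NICD at stage 18 (0.34 to 0.49). In that fit 13.2% of all probe sets were called in either direction.

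Of the genes for chromatin and transcription proteins known to bind geminin, six3.L fell with NICD at stage 18 (-0.68 ± 0.14, adjusted p = 0.012), and the other 12 of 13 probe sets did not pass, beside 1.61% of all probe sets called. Among those 12, the six3.S probe sets differed by 0.07 and -0.15 (adjusted p = 0.81 and 0.53). With the block scmh1.S, a Polycomb gene, fell too (-0.44 ± 0.14, adjusted p = 0.049), beside 13.2%. Of 29 probe sets for neural plate and early neuron genes, 3 fell and none rose, beside 1.61% of all probe sets called. They were the proneural and neuronal differentiation factors neurod1.S (-0.88 ± 0.17, adjusted p = 0.009), neurod4.L (-0.85 ± 0.21, adjusted p = 0.043) and 1 of 3 probe sets of neurog2.S (-0.60 ± 0.15, adjusted p = 0.043), of which the others differed by -0.26 and -0.07 (adjusted p = 0.2 and 0.94). The L copies neurod1.L and neurog2.L differed by -0.41 and -0.19 and did not pass (adjusted p = 0.38 and 0.62). With the block 6 of the 29 fell and 1 rose, beside 13.2% of all probe sets, and the one that rose was the neural plate gene zic2.L (0.29 ± 0.08, adjusted p = 0.024). At stage 28 none passed without the block, beside 0.65% of all probe sets. There 10 had an unadjusted p below 0.05, a cut at which all probe sets were not counted. With the block 6 rose, probe sets of zic2, sox2 and sox3, and neurod1.S fell, beside 6.19% of all probe sets called. At stage 38 zic2.L rose with the block (0.40 ± 0.08, adjusted p = 0.019), beside 1.21%. In the fit on the 6 arrays of the comparison alone, none of these 4 stage 18 falls passed (adjusted p from 0.22 to 0.49). When single arrays were left out, their adjusted p went up to between 0.063 and 0.26.

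Markers of cell types in the pools moved too. Of 59 probe sets in 8 marker lists, 4 fell with NICD at stage 18 and none rose, beside 1.61% of all probe sets called: ccno.S (-1.21) and ccno.L (-1.02) of multiciliated cells, rax.L (-0.71) of the eye field and lhx1.L (-0.74) of the kidney. The mean log2 level of the 7 multiciliated probe sets was 7.12 to 7.60 on NICD arrays and 7.94 to 8.17 on GFP arrays of that stage. For the 8 neuron probe sets it was 7.54 to 7.56 against 7.59 to 7.88, and the muscle and eye lists also lay below GFP without overlap. With NICD at stage 28, 2 of the 59 fell beside 0.65% of all probe sets, the lens crystallin genes crybb1.L (-1.92) and crybb1.S (-1.19). There 6 of the 8 lists lay below GFP without overlap in their mean level (neuron, blood, liver, multiciliated, eye and kidney), and the multiciliated list was at 6.79 to 6.88 against 7.17 to 7.28. At stage 28, where gmnn.L was lower with DBM, the neuron list lay at 8.70 to 8.90 with GFP. It was above that range on all 3 DBM arrays, up to 9.22, and the muscle list lay above GFP too. Of the 59 probe sets 1 was called there, snap25.L, which rose (0.73, adjusted p = 0.046), beside 0.107% of all probe sets called. With NICD at stage 38, where both geminin copies overlapped GFP, 3 of the 8 lists lay below GFP without overlap (neuron, eye and kidney). With DBM at stage 18 the 4 liver probe sets lay at 4.282 to 4.489, below GFP at 4.502 to 4.752, which leaves next to no gap. These are low levels beside the 12.91 to 13.60 of GFP at stage 38. No list was free of overlap with DBM at stage 38. How often other lists of such sizes lie free of overlap was not computed, so these separations of list means are descriptions. The part of these markers in the geminin differences was not tested.

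Across stages in GFP embryos large shares of all probe sets changed, those of the cell cycle lists among them. At the later step the geminin differences were smaller in size than the licensing median. From stage 28 to stage 38, 16 of 23 licensing probe sets fell and 1 rose, beside 41.2% of all probe sets called, and their median difference was -0.77 against -0.43 for both geminin copies. The falls of lowest p were cdc6.L (-1.28 ± 0.10), mcm4.S (-1.22 ± 0.13), mcm6.2.S (-1.09 ± 0.11) and mcm5.L (-0.93 ± 0.09), and the one that rose was orc4.L (0.49 ± 0.09). In the same interval 29 of 61 mitosis probe sets fell and none rose, led by incenp.L (-1.05), ccnb2.S (-1.31), plk1.S (-0.69) and birc5.S (-1.60). Origin firing had 8 of 15 lower and 1 higher, and S phase genes 16 of 51 lower and 5 higher, with the G1/S cyclins ccne1.S (-1.22) and ccne2.S (-1.07) among those that fell. The called shares of the mitosis, S phase and turnover lists lay near the 41.2% of all probe sets. Of the 37 turnover probe sets 12 fell and 5 rose. Those of lowest p that fell were dtl.S (-1.38), skp2.L (-0.87), fbxo5.L (-0.73) and cdc20.S (-0.72), and those that rose were skp1.L (1.002), anapc11.L (0.86), ddb1.S (0.39) and anapc7.L (0.45).

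From stage 18 to stage 28 the means of gmnn.L and gmnn.S went opposite ways in GFP embryos, with overlap for gmnn.L. With NICD and with DBM the means of both copies were lower at stage 28. In GFP embryos the licensing list was divided as well. In it 10 probe sets rose and 7 fell, beside 51.4% of all probe sets called, with orc5.L at 1.16 ± 0.18 and mcm4.S at 0.62 ± 0.13 among the former and mcm6.L, the maternal MCM6 form of early Xenopus embryos, at -3.53 ± 0.15 and mcm7.L at -0.74 ± 0.08 among the latter. S phase genes had 19 of 51 higher and 11 lower, and mitosis genes 6 of 61 higher and 27 lower, beside the same 51.4% of all probe sets. The maternal cyclin gene ccna1 led the falls of the mitosis list, at -3.66 ± 0.39 for the S copy and -2.61 ± 0.22 for the L copy.

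**Figure D5:**
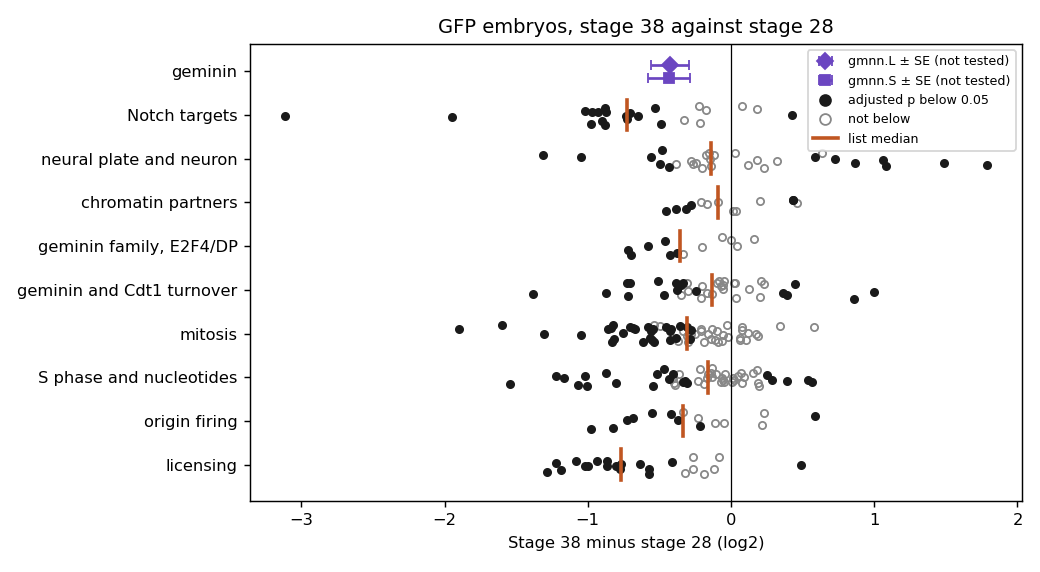
Stage 38 minus stage 28 in GFP embryos (log2) for each probe set of 9 gene lists, with list medians and the geminin probe sets with 1 SE. Filled points passed an adjusted p of 0.05, the licensing median is -0.77, and both geminin copies lie at -0.43.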

How the data were processed

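The authors hybridised labelled RNA of 27 pools to Affymetrix Xenopus laevis Genome 2.0 arrays and summarised the probes by RMA in Bioconductor, and the deposited values, on the log2 scale after background correction and quantile normalization, were used unchanged. RMA forces a common distribution on all arrays, so a shift of the whole transcriptome cannot be seen, and no detection calls were at hand. A second deposited table repeats log2 values and adds the authors' adjusted p-values, which were not used. In it 6 columns matched arrays by name and differed from the first table by at most 0, and the other 21 columns of log2 values were not used. Groups and replicate numbers came from the titles. Gene symbols came from the platform annotation and were updated through Entrez identifiers in the RefSeq table of Xenopus laevis (assembly v10.1, names alone). Of all probe sets, 15505 had 1 symbol, 279 several and 16851 none, and 15394 identifiers were found.

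Values were analysed in R 4.3.3 with limma 3.58.1. A linear model of the 9 groups was fitted to all 32635 probe sets and all 27 arrays, with contrasts, eBayes and Benjamini-Hochberg adjustment over all probe sets at 0.05. The fit was run on simulated data with independent noise on every array. That check cannot cover deviations that arrays of the same number share. For geminin itself only levels, differences and standard errors were taken from the fit. That fit has no replicate block, so its standard errors include spread that arrays of the same number share. The series calls the pools biological replicates but does not say whether they came from separate batches of embryos, so p-values measure the spread between these pools, and 3 arrays per group limit the precision. Replicate numbers were taken to pair the arrays, which the titles do not state. In all 27 pairs of the same number within a stage, deviations from group means correlated, at 0.45 to 0.81. Arrays of different numbers correlated at -0.69 to 0.57 at stage 18, so the ranges overlap there. At stages 28 and 38 such pairs reached at most -0.19 and -0.29. Deviations from a group mean cancel out within the group. Where arrays of the same number correlate positively, those of different numbers must be negative on average, so these values are no separate evidence of pairing. Because arrays of the same number correlated, the fit with a block is given beside the list counts it changes.

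The members, 9 gene lists and 8 marker lists were chosen with earlier results of these data known. The genes named were both geminin probe sets, cdt1 and mcidas, up to 4 probe sets of lowest p per list and direction among those past the threshold, the 5 symbols most correlated with each geminin probe set, and hes5.1, hey1 and nrarp. Genes named from fits with the block or from the marker lists were chosen after their values were seen. Other settings were repeated quantile normalization, a common median, each array left out, a replicate block over all or within each stage, the arrays of a comparison alone, dropping dim probe sets (mean below the 0.25 quantile), eBayes with trend and robust, and Benjamini-Yekutieli adjustment. Using only replicates 2 and 3 at stage 18, which share a code in the second table, was added after values were seen.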

Additional observations from a re-analysis of the deposited data

Results flagged for a closer look

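For gmnn.S the DBM embryos were above GFP in all 3 pairs of the same number at stage 18 and below it in all 3 at stage 28, and the mean differences were 0.36 apart. This contrast between stages was not tested, and at stage 28 the pair differences were -0.06, -0.08 and -0.12. The other copy did not show it in full, as the stage 18 pairs of gmnn.L were -0.02, 0.26 and 0.31. The share of all probe sets with such a pattern was not counted.

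The effect of NICD on most probe sets of its check genes differed between stages by a test of the difference itself (limma interaction, adjusted over all probe sets). From stage 18 to stage 28 it changed by -2.42 for hes5.1.S, -1.67 for hes5.1.L, and -1.79 and -1.29 for the 2 probe sets of hey1.S. On hey1.S probe set Xl2.469.1.S1_at the GFP mean went from 8.14 to 10.28 and the NICD mean from 10.47 to 10.81, so the NICD level did not fall. For hes5.1.S GFP went from 8.52 to 9.70 and NICD from 11.66 to 10.42. From stage 18 to stage 38 the NICD effect changed by -2.94 for hes5.1.S, -2.15 for hes5.1.L, -2.32 and -2.06 for hey1.S and -0.92 for 1 probe set of nrarp.S. The other nrarp.S probe set changed by -1.46 (adjusted p = 0.097), and neither passed between stages 18 and 28 (adjusted p = 0.7 and 0.82). None passed between stages 28 and 38. The share of all probe sets that passed these interaction tests was not counted. The corresponding change was not tested for geminin.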

How the results depend on the processing

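Of 244 geminin differences recomputed under other settings, 243 stayed within 1 SD of replicates of the reported value. The exception was gmnn.S for NICD minus DBM at stage 18, which was 0.73 with replicates 2 and 3 alone against 0.62. Signs changed in 13 of the 244, none with a reported size above 0.25. Many of the 244 could not move by 1 SD. Leaving out 1 of 3 arrays shifts a difference by less than that, and a replicate block changes no difference in this balanced design. The count of 243 is therefore no measure of stability. With single arrays left out, NICD minus GFP at stage 18 was 1.03 to 1.25 for gmnn.L and 0.78 to 1.04 for gmnn.S, and DBM minus GFP at stage 28 was -0.48 to -0.29 for gmnn.L.

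Counts of called probe sets moved more. For NICD against GFP at stage 18, 525 of all probe sets passed in the main fit, 907 with the replicate block over all stages, 4319 with the replicate block within each stage, 1460 with replicates 2 and 3 alone, 118 under Benjamini-Yekutieli and 2 on the arrays of the comparison alone. At stage 28, 212 passed, against 366 and 2021 with these blocks, 15 and 0. With the block within stages the counts at stage 18 were 4 for licensing, 18 for the cell cycle lists together, 7 for neural genes and 2 for chromatin partners, and at stage 28 they were 2 for the cell cycle lists, 7 for neural genes and 18 for Notch targets. It called 2 probe sets of all lists other than Notch targets for NICD at stage 38, and 1 for DBM at stage 28, as did the block over all stages, which gave 12 Notch targets for NICD at stage 28 and 8 origin firing probe sets between stages 18 and 28 of GFP. Replicates 2 and 3 alone gave 3 for licensing, 9 for the cell cycle lists and 8 for neural genes with NICD, and 2 for all lists other than Notch targets with DBM. On the arrays of the comparison alone, neural genes and chromatin partners had 0 with NICD at stage 18 and Notch targets 1, and at stage 28 Notch targets 0. Benjamini-Yekutieli left 0 neural genes, 0 chromatin partners and, at stage 28, 1 Notch target. Between GFP stages 18 and 28 it left 11 licensing, 19 mitosis and 3 origin firing probe sets, and between stages 28 and 38, 5 origin firing and 11 S phase probe sets. Outside the block within stages, these settings counted all probe sets for NICD against GFP at stages 18 and 28 alone. Their list counts for DBM and between GFP stages have no such share beside them, so they are no result about the lists. The cause of these moves in the counts was not tested.

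Leaving out single arrays moved the stage 18 NICD counts over 194 to 1529 for all probe sets, 0 to 1 for licensing, 0 to 5 for the cell cycle lists, 0 to 6 for neural genes and 0 to 2 for chromatin partners, with the highest value of each found without GFP replicate 1. At stage 28 the ranges were 26 to 257 for all probe sets, 2 to 6 for Notch targets and 0 to 1 for neural genes. Between GFP stages they were 3 to 6 for origin firing from stage 18 to 28 and 12 to 18 for S phase from stage 28 to 38. All probe sets were not counted between GFP stages with arrays left out. The block within each stage could not be used between stages.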
